A study of Mus musculus with 158 samples.

Results

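The clustered protocadherins are 58 genes that lie in a row on mouse chromosome 18 in 3 subclusters, with 14 alpha, 22 beta and 22 gamma members. They were taken by name from the gene annotation, out of 21756 genes tested over the whole series. For each member, DHS hotspots were counted as present when at least 1 base lay within 1 kb of the annotated start, and hotspots elsewhere in the region from the Pcdha1 start to the last gamma end were described apart. The region spans 911690 bp (mm10, chromosome 18, 36930184 to 37841873), and all members are transcribed in 1 direction from left to right.

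Clustered protocadherins are cell-surface adhesion proteins, best known in neurons, where each cell uses its own small subset and thereby gains a surface identity. Each alpha and gamma gene has its own promoter and its own first exon, which is spliced to constant exons shared by the subcluster, whereas each beta gene is a single coding exon. CTCF is a DNA-binding protein that holds chromatin loops together with cohesin. It is known to bind near most clustered protocadherin promoters, at a conserved sequence element that Pcdhac2, Pcdhb1, Pcdhgc4 and Pcdhgc5 are known to lack, and in the alpha subcluster also within the first exon. The promoters of the alternate members are known to be methylated and silent in most cells outside the nervous system.

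DNase-seq, which marks accessible DNA by its cutting with DNase I, was available for liver, kidney, lung and bone marrow B cells of F1 hybrids of C57BL/6J mothers with fathers of 5 other strains, called B6x129, B6xC3H, B6xCAST, B6xPWK and B6xSPRET after both parents. The labels name no treatment or transgene. Mice were 8 weeks old where the methods give an age, solid tissues were typically pooled from several mice, and B cells came from females by depletion of CD43+ and CD11b+ marrow cells. The labels list 138 DNase-seq entries of adult tissue, 2 to 14 per hybrid and tissue, some of which are by their names several libraries of 1 sample. They were merged by the authors into 1 hotspot set for each of 20 conditions, so the condition was the unit of comparison, and hybrids served as the replicates of a tissue. Cultured B6xCAST mouse embryonic stem cells (mESCs) gave 1 DNase-seq set, for which the labels list 2 samples, and 1 CTCF ChIP-seq set from 1 sample, so that neither set had a replicate set.

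The smallest adult set (B cells of B6xC3H) held 78387 hotspots and the largest (liver of B6x129) 295565, with 115267 in mESC DNase-seq and 98110 in CTCF ChIP-seq. B cell sets held 78387 to 156078 hotspots and the other tissues 152006 to 295565, so the tissue with the smallest sets was also that with the fewest member hotspots, and the part of set size in this was not tested beyond the comparison at equal size given further on. Marker genes followed the labels in part: hotspots lay at all 5 liver markers in all 5 liver sets, at 4 of 5 kidney markers in all kidney sets, at all 5 lung markers in all lung sets, at all 5 B cell markers in all B cell sets and at 4 of 5 stem cell markers in mESCs. Neuronal and endothelial markers were also accessible in the solid tissues (all 5 neuronal markers in all kidney sets and all 5 endothelial markers in all lung sets), while Sox10 of the glial list and Mpo of the myeloid list had no hotspot in any adult set. The tissue lists were not specific either. Of the 5 liver markers 2 were open in all kidney sets, of the 5 lung markers 2 in all liver sets. Of the 5 B cell markers 3 were open in all lung sets, whereas 0 liver, kidney or lung markers were open in all B cell sets. Whole tissues mix cell types, and fewer cells with an open site and less cutting per cell cannot be told apart.

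**Figure D1:**
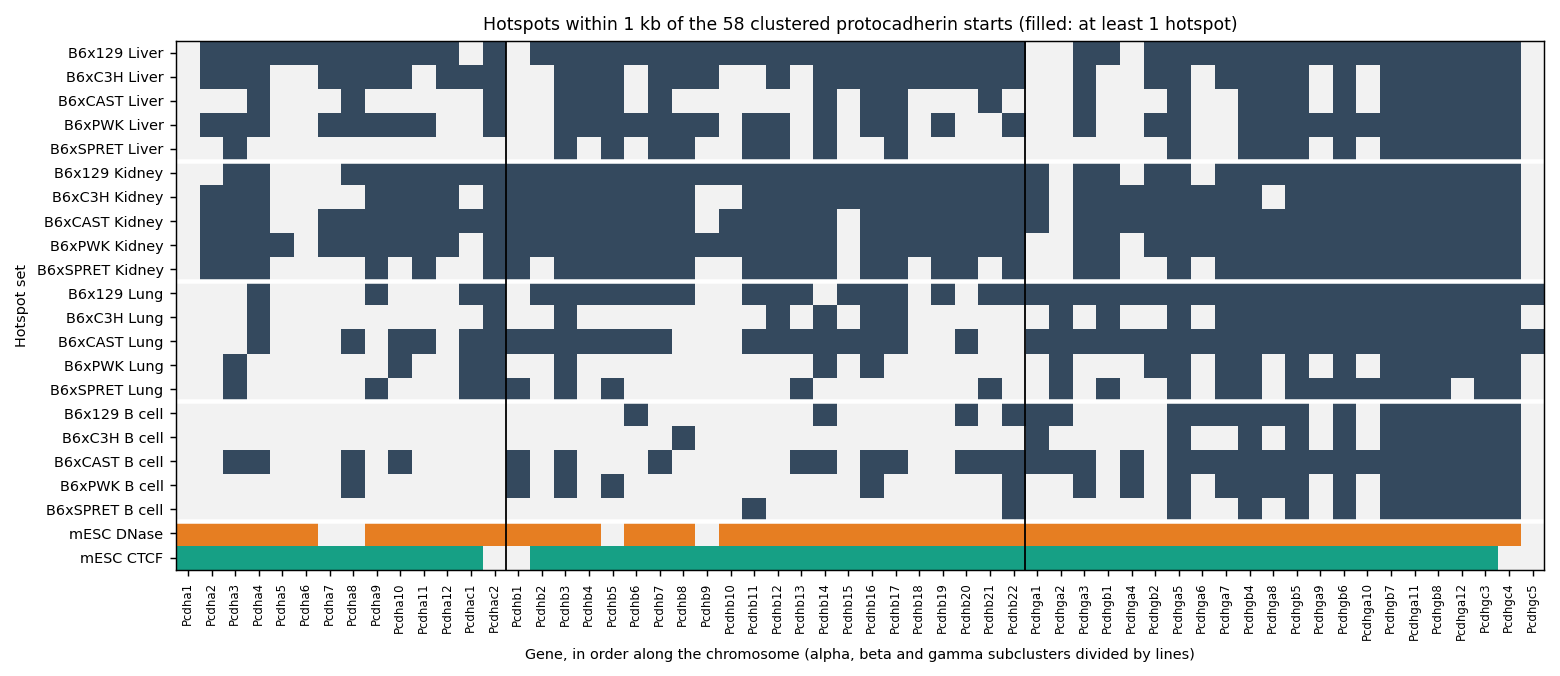
Hotspots within 1 kb of each member start, with the 58 members along the horizontal axis in chromosome order and the 22 hotspot sets along the vertical axis. Filled squares mark at least 1 hotspot, in blue for adult sets, orange for mESC DNase and green for mESC CTCF. The CTCF row is filled for 54 members, and the right end of the gamma subcluster is filled in all adult rows except at Pcdhgc5 and 1 lung set of Pcdhga12.

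In mESCs, CTCF lay at nearly every member start. CTCF hotspots were found at 54 of 58 starts (93.1%), against 27.2% of all gene starts. The 4 members without one were Pcdhac2, Pcdhb1, Pcdhgc4 and Pcdhgc5. CTCF was thus found at 13 of 14 alpha, 21 of 22 beta and 20 of 22 gamma starts. These 4 are the members known to lack the conserved element. The count was 54 also with windows of 500 bp or 2 kb, at FDR 1%, with an overlap of 50 bp and with any transcript start.

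CTCF hotspots of the members were also strong within their set. The authors' score is the −log10 of the FDR, limited to 100, and its median was 19.0 at the members with CTCF against 4.51 over all 98110 CTCF hotspots. The median member hotspot stood at the 74.8th percentile of the set, whereas the median over all genes with a CTCF hotspot at the start was at the 62.8th. Pcdha1, the first gene of the row, had the ceiling score of 100 over a hotspot of 1740 bp. Pcdha4 followed with 62.5, Pcdhac1 with 62.0, Pcdhgb4 with 57.4 and Pcdha6 with 57.4. The weakest were Pcdhb20 with 2.67, Pcdhb21 with 5.14 and Pcdhgc3 with 5.36. By subcluster, the median was 23.5 in alpha, 14.1 in beta and 23.7 in gamma, and the ranges overlapped.

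The subclusters differed in where CTCF lay. At the beta and gamma starts the hotspots were single in 20 of the 21 and 19 of the 20 members that had any, and were centred close to the start, with a median centre at -41.5 bp in beta and -47 bp in gamma, where negative positions are upstream. At the alpha starts, 8 of the 13 members had 2 hotspots, the first centred at -184 to -12 bp from the start, thus upstream, and the second 493 to 719 bp downstream, within the first exon. Pcdha1, Pcdha4 and Pcdha8 instead had 1 wide hotspot of 1740, 1271 and 1082 bp that reached across both places. Pcdha2 and Pcdhac1 had 1 hotspot at the start only. The point 550 bp downstream of the start was covered by CTCF in 11 of 14 alpha, 1 of 22 beta and 2 of 22 gamma members.

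The sequence under these places was searched for the CTCF core consensus of 12 letters, in both orientations and within 1 kb of the start, on the mm10 genome. Exact matches were found in 6 members, Pcdha1, Pcdha4, Pcdha6, Pcdha7, Pcdha8 and Pcdha12, all in the direction of transcription and 537 to 581 bp downstream. With 1 mismatch allowed, 8 of the 12 alternate alpha members had a forward match between 500 and 600 bp downstream, against 0.575% of all genes, and none had a reverse match there. Pcdha5 had its forward match 456 bp downstream. The interval of 500 to 600 bp was not part of the planned design. Within 1 kb of the start, 9 of the 12 had a forward match with 1 mismatch allowed, against 11.4% of all genes. Within 1 kb of the start, exact matches in either orientation were present in 1.73% of all genes and in no beta or gamma member.

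The short motif CGCTG, which belongs to the known core of the conserved element, was counted from 150 bp upstream to 50 bp downstream of the start. It was chosen after member sequences had been looked at. In the direction of transcription it was present in 42 of the 54 members with CTCF (77.8%) and in none of the 4 without, against 21.6% of all genes. It was found in 6 of 14 alpha, 17 of 22 beta and 19 of 22 gamma members, and in beta its matches began at -128 to -26 bp, upstream of the start. In the reverse direction 8 of 58 members (13.8%) held it, against 21.9% of all genes. Counting both strands, 46 of 58 members (79.3%) and 36.5% of all genes held it. These were 45 of the 54 members with CTCF and 1 of the 4 without, Pcdhac2.

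A further group of CTCF hotspots lay 1.8 to 2.8 kb downstream of the starts, mostly in the beta subcluster. CTCF was centred there in 15 of 22 beta members (68.2%), 4 of 14 alpha members and 4 of 22 gamma members, against 5.58% of all genes, and this distance was chosen after the profile of hotspots had been seen. All 16 such beta hotspots touched the member's own exon, at a median of 2.26 kb from the start and a median of 1507 bp before the annotated gene end. Their scores ran from 2.76 at Pcdhb16 to 31.4 at Pcdhb13, with Pcdhb8 at 27.8 and Pcdhb14 at 24.1. DNase hotspots of mESCs touched 6 of the 16, and 5 of the 16 were touched by a hotspot of any adult set. The 1 with the most adult sets was that of Pcdhb14, in 4 of 20. In gamma, the downstream hotspot of Pcdhgc3 was touched in 14 of 20 adult sets, including all 5 kidney and all 5 lung sets, and that of Pcdhga8 in 8.

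**Figure D2:**
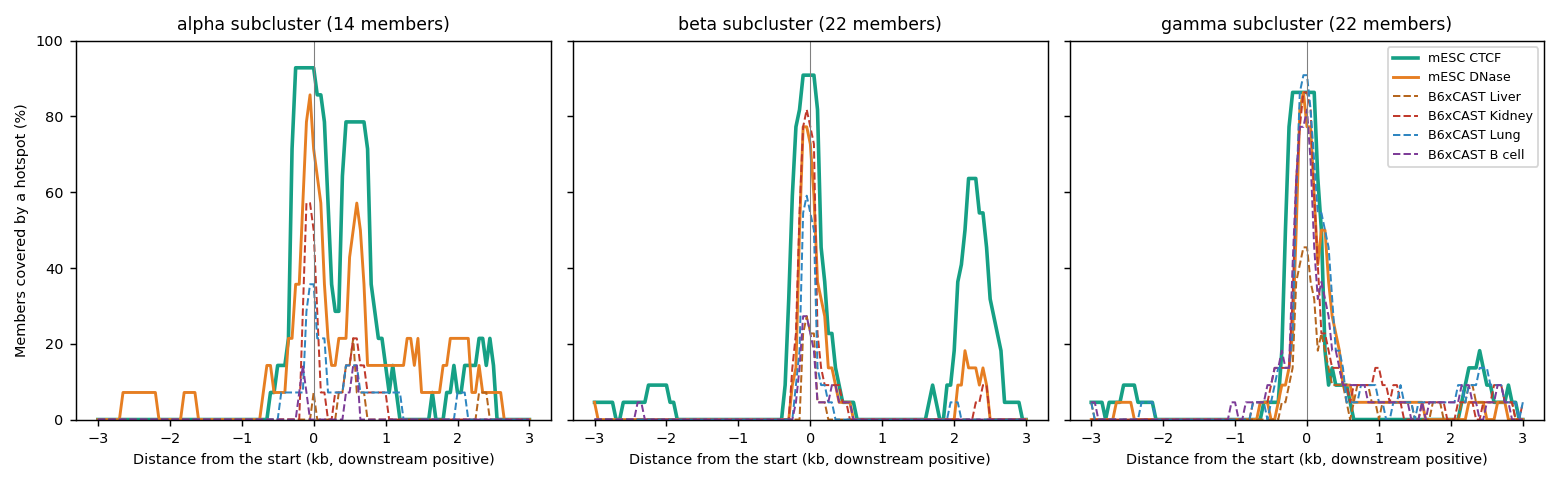
Percentage of the members of each subcluster covered by a hotspot (vertical axis) by distance from the start in kb (horizontal axis, downstream positive), for mESC CTCF, mESC DNase and the 4 B6xCAST adult sets. Alpha members have a second CTCF peak about 0.55 kb downstream and beta members one at a median of 2.26 kb. Adult hotspots of beta and gamma members are mostly at the start itself. Among alpha members, B6xCAST liver hotspots cover 7.14% at the start and 21.4% at 0.55 kb downstream.

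DNase hotspots in mESCs covered nearly the same starts. They were found at 53 of 58 members (91.4%) against 65.1% of all genes, and were absent at Pcdha7, Pcdha8, Pcdhb5, Pcdhb9 and Pcdhgc5. Of the 4 members without CTCF, 3 had a DNase hotspot, and Pcdhac2 had one of 2028 bp with a score of 16.3. The highest scores were at Pcdhga2 (23.5), Pcdha12 (20.9) and Pcdha10 (20.5), and the lowest at Pcdhb16 (1.44) and Pcdhga10 (1.48). Unlike for CTCF, the median member hotspot ranked below the usual start, at the 61.7th percentile of its set against the 89.3rd for all genes with a hotspot.

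In the adult tissues, member starts were open in changing numbers from condition to condition. Given in the order B6x129, B6xC3H, B6xCAST, B6xPWK and B6xSPRET, liver sets had a hotspot at 51, 40, 23, 38 and 20 members. Kidney sets had 49, 47, 51, 50 and 38. Lung sets had 42, 23, 43, 20 and 23, and B cell sets 19, 12, 33, 20 and 12. Kidney was highest in 4 of the 5 hybrids and fell below liver only in B6x129, B cells were lowest in 3 hybrids and tied with lung in B6xPWK, and only kidney and B cells did not overlap. The means were 47.0 ± 5.24 in kidney (SD, n = 5 hybrids), 34.4 ± 12.8 in liver, 30.2 ± 11.3 in lung and 19.2 ± 8.58 in B cells. Over all 21756 genes the share of open starts was 68.7 ± 1.18% in kidney, 67.4 ± 2.76% in liver, 68.1 ± 3.78% in lung and 58.02 ± 3.21% in B cells.

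Divided by the share of all genes in the same set, the members' share was 1.18 ± 0.118 in kidney, 0.873 ± 0.296 in liver, 0.755 ± 0.241 in lung and 0.562 ± 0.223 in B cells. The lowest kidney ratio, 0.974 in B6xSPRET, was above the highest B cell ratio, 0.922 in B6xCAST.

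Taken at equal size, the order of tissues was another. When every condition was limited to its 75000 highest-scoring hotspots, 12.6 ± 1.14 members had one in B cells, 11.4 ± 4.83 in kidney, 8.00 ± 3.39 in lung and 6.40 ± 2.07 in liver. B cells were then no longer lowest, and kidney overlapped with all other tissues. Pcdhga5, Pcdhgb5, Pcdhgb6, Pcdhgb7, Pcdhga11, Pcdhgb8, Pcdhga12, Pcdhgc3 and Pcdhgc4 reached this level in all 5 B cell sets, and Pcdhgb4 and Pcdhb22 in 4. The level is not equally strict in all sets. It kept nearly all of the 78387 hotspots of B6xC3H B cells, but a minor part of the 295565 of B6x129 liver. Pcdhb8 thus reached it in B6xC3H B cells at the 13.4th percentile of that set. The cause of the change in the order of tissues was not tested. The share of all genes at this size was 53.2 to 56.5% in B cells and 56.1 to 59.8% in kidney.

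**Figure D3:**
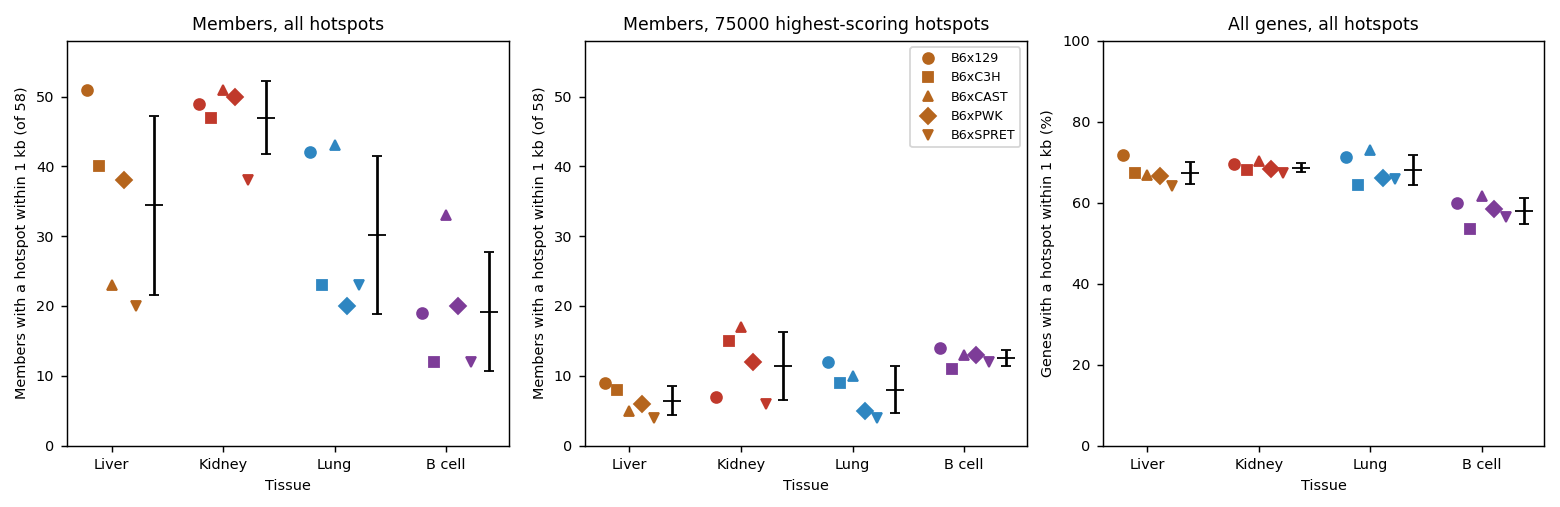
Members with a hotspot within 1 kb of the start in each condition (left, all hotspots, and middle, the 75000 highest-scoring hotspots, of 58 members) and the percentage of all 21756 genes (right). Symbols are hybrids, colours tissues, and black bars the mean ± SD over 5 hybrids. Kidney lies at 38 to 51 and B cells at 12 to 33 on the left, and B cells at 11 to 14 in the middle panel.

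Member hotspots in adult tissue ranked below the usual start. In each adult set, the median member hotspot ranked between the 27.5th and the 63.0th percentile of the hotspots of that set, whereas the median over all genes with an open start lay between the 90.6th and the 100th. Of the 58 members, 29 were never among the 75000 highest-scoring hotspots in any condition. The alpha members reached this level in at most 1 of 20 conditions and the beta members in at most 5, whereas the gamma members ranged up to all 20.

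**Figure D4:**
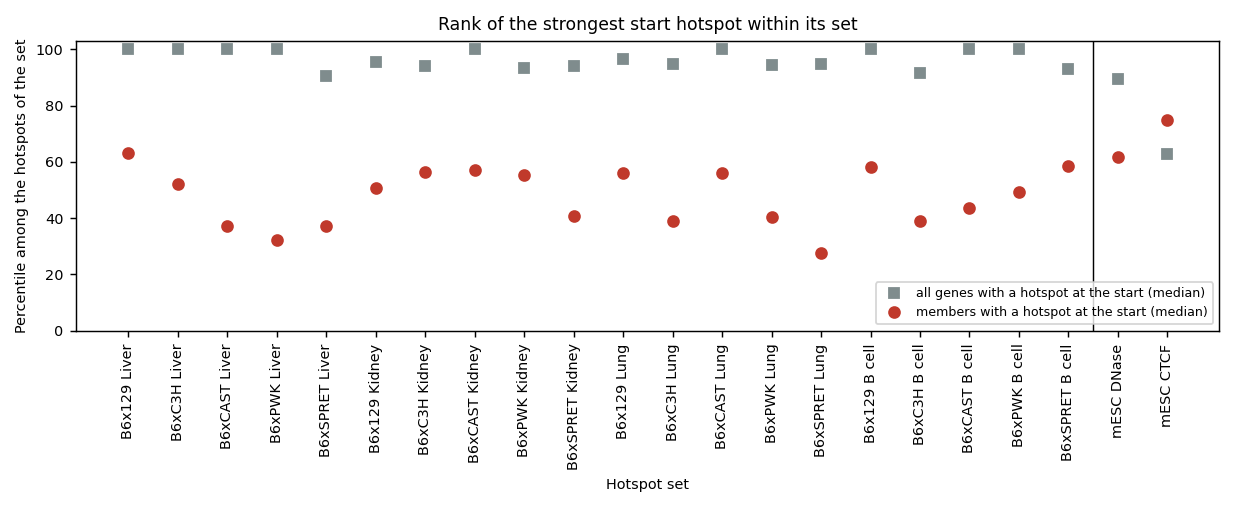
Rank of the strongest hotspot at a start as a percentile of all hotspots in the same set (vertical axis), as the median over members (circles) and over all genes with a hotspot (squares), for the 22 sets (horizontal axis). Circles lie below squares in all DNase sets, at 27.5 to 63.0 in the adult ones, and above the square only for CTCF.

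Open starts were spread unevenly over conditions. A hotspot was present in all 20 conditions at 9 members (15.5%) and in some but not all at 48 (82.8%), against 48.7% and 35.0% of all genes. The 1 member with none was Pcdha1 (1.72%, against 16.3% of all genes), which had the strongest CTCF hotspot in mESCs. The median member was open in 10.5 of 20 conditions.

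The 9 members open in all 20 conditions were gamma genes, namely Pcdhga5, Pcdhgb4, Pcdhgb5, Pcdhgb6, Pcdhgb7, Pcdhga11, Pcdhgb8, Pcdhgc3 and Pcdhgc4. Pcdhga12 was open in 19, all but B6xSPRET lung. Pcdhgb7, Pcdhga11, Pcdhgb8, Pcdhga12, Pcdhgc3 and Pcdhgc4 follow each other at the right end of the subcluster, before Pcdhgc5, whereas Pcdhga5 lies farther left. By family, 5 of 7 Pcdhgb, 2 of 12 Pcdhga and 2 of 3 Pcdhgc members were open throughout, with medians of 20, 12.5 and 20 conditions. Pcdhgb8, which the annotation calls a polymorphic pseudogene, was counted with the rest.

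Pcdhgc3, a C-type gamma gene, was the 1 member among the 75000 highest-scoring hotspots in all 20 conditions, at a percentile of 93.8 to 100 in kidney, 90.4 to 100 in liver, 76.0 to 100 in B cells and 93.1 to 100 in lung. Its CTCF hotspot in mESCs was among the weakest of the members. Pcdhga12 stood highest in liver, at a percentile of 84.3 to 100 against 71.9 to 86.9 in kidney, 74.9 to 81.6 in the 4 lung sets that had it and 34.9 to 60.6 in B cells, and only kidney overlapped with liver. Pcdhgc4 was open in all 20 conditions without CTCF in mESCs, with a percentile of 15.4 to 64.9 in liver and 59.6 to 89.97 in lung, which overlapped.

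The other C-type genes, which are known to be used widely rather than by choice among alternates, each had a different pattern. Pcdhac2 was open in 4 liver, 5 kidney, 5 lung and 0 B cell sets. Pcdhac1 was open in 1 liver, 2 kidney, 4 lung and 0 B cell sets. Pcdhgc5, the last gamma gene, was open only in the lung of B6x129 and B6xCAST, with scores of 5.97 and 1.64.

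Alpha members were open in few B cell and lung sets. Open alpha members numbered 6 to 11 of 14 in kidney, 1 to 12 in liver, 2 to 6 in lung and 0 to 4 in B cells, where B6xCAST had 4 and the other hybrids at most 1. Pcdha3 (12 of 20 conditions) and Pcdha4 (13) were the most often open alternates, each in all 5 kidney sets, and Pcdha8, Pcdha9 and Pcdha10 followed with 10 each. Pcdha12, the last alternate alpha gene, was open in 2 liver and 4 kidney sets and in no lung or B cell set. Pcdha5 was open in 2 conditions and Pcdha6 in 1. The start itself was covered in 45.7% of member and condition pairs in kidney and 27.1% in liver, and the point 550 bp downstream in 22.9% and 24.3%. In lung these shares were 15.7% and 7.14%, and in B cells the start was covered in 0 of 70 pairs and the point downstream in 3.

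Beta members were most often open in kidney. Kidney sets had 22, 20, 20, 21 and 16 of 22 open beta members, in the order B6x129, B6xC3H, B6xCAST, B6xPWK and B6xSPRET, and 16 beta members were open in all 5. Liver sets had 8 to 21, lung sets 3 to 16 and B cell sets 1 to 10. Pcdhb3 was open in 17 of 20 conditions and was the beta gene with the most, followed by Pcdhb14 and Pcdhb16 with 15 and Pcdhb5 and Pcdhb17 with 14. Pcdhb1, the first beta gene and the one without CTCF, was open in 5 of 5 kidney, 0 of 5 liver, 2 lung and 2 B cell sets. Pcdhb22, the last one, was open in 4 of 5 B cell sets, the most of any beta gene there, and in 5 kidney, 3 liver and 1 lung sets.

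Gamma members differed least by tissue. They numbered 16 to 20 of 22 in kidney, 13 to 22 in lung, 11 to 18 in liver and 10 to 19 in B cells, and all 4 ranges overlapped. Pcdhga2 was open in 5 of 5 lung and 2 of 5 B cell sets but in no liver or kidney set. Pcdhga1, the first gamma gene, was open in 3 kidney, 2 lung and 3 B cell sets and in no liver set. Pcdhgb1 was open in 5 of 5 kidney, 4 lung and 1 liver sets and in no B cell set.

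Other members open in at least 10 conditions were Pcdhb7 and Pcdhga3 (13 each), Pcdhb12, Pcdhga9 and Pcdhga10 (12 each), Pcdhb4, Pcdhb8 and Pcdhb11 (11 each), Pcdhb6, Pcdhb13, Pcdhb20, Pcdhb21 and Pcdhgb2 (10 each), and Pcdhga7 and Pcdhga8 (15 each).

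Each of the 21756 starts was then compared between 1 tissue and the other 3 with Fisher's exact test, 5 against 15 conditions, with Benjamini-Hochberg adjustment over all genes. Only nearly complete patterns can pass, since the smallest possible p was 6.45e-05. Pcdhac2 was lower in B cells (0 of 5 against 14 of 15, adjusted p = 0.0131), which was the 1 member called there, where 4.44% of all gene starts were called lower. With 1 hybrid left out, the call was lost without B6x129, B6xC3H, B6xCAST or B6xPWK (0 members called) and was kept without B6xSPRET, and it was also lost at FDR 1%. No member was called in the other comparisons. Of all genes, 0.896% were called higher and 0.0919% lower in liver, 0.382% higher and 0.0873% lower in kidney, 0.294% higher and 0.00919% lower in lung, and 0.193% higher in B cells. At an unadjusted p under 0.05, 16 members (27.6%) were higher in kidney, against 4.17% of all genes, and none lower. For B cells the figures were 12 members lower (20.7%, against 9.71% of all genes) and none higher. For lung they were 2 higher and 1 lower, against 2.94% and 1.14% of all genes, and for liver none higher and 1 lower, against 3.51% and 1.43%. Pcdhga2 was nearest to a call in lung (5 of 5 against 2 of 15, adjusted p = 0.157) and Pcdha11 in kidney (5 of 5 against 3 of 15, adjusted p = 0.207).

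Among hybrids, B6xSPRET had the fewest open members, with 38 in kidney, 20 in liver, 12 in B cells and 23 in lung (mean 23.2 ± 10.9, SD over 4 tissues). The means were 40.2 ± 14.7 in B6x129, 37.5 ± 12.2 in B6xCAST, 32.0 ± 14.7 in B6xPWK and 30.5 ± 15.9 in B6xC3H, and the ranges of all hybrids overlapped. B6xSPRET was lowest in liver and kidney and tied with B6xC3H in B cells. Its ratio to all genes averaged 0.620, against 0.805 to 1.001 in the others. Mus spretus, the species of its fathers, is the most distant of the 5 from the reference genome to which all reads were mapped. In the paper's summary, B6xSPRET also had the fewest analysed reads of the 5 hybrids in each tissue. The parts of distance, mapping and depth in these counts cannot be told apart and were not tested.

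CTCF in mESCs did not order the members by adult accessibility. The 54 members with CTCF were open in a median of 10.5 conditions and the 4 without in 11.5. By tissue, the members with CTCF were open in 81.5% of member and condition pairs in kidney, 60.4% in liver, 33.0% in B cells and 50.7% in lung, and the 4 without in 75%, 45%, 35% and 70%. Over all genes, starts with CTCF were open in 81.2 to 91.1% of pairs by tissue and starts without it in 49.4 to 60.3%. Across the 54 members, Spearman's rho between the CTCF score and the number of open adult conditions was -0.0231, and -0.133, 0.00588 and 0.181 within alpha, beta and gamma. The points come from neighbouring genes in the same libraries. Of 778 adult hotspots in the members' windows over the 20 conditions, 649 (83.4%) touched a CTCF hotspot and 518 (66.6%) covered the start. The windows of 54 members held a CTCF hotspot, so this overlap is partly set by the choice of windows. The share over the windows of all genes was not computed.

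Over the whole region, the number of hotspots per adult condition was lowest in B6xC3H B cells (18) and highest in B6xCAST lung (97), and mESCs had 106 DNase and 108 CTCF hotspots. By tissue the mean was 79.8 ± 8.53 in kidney, 72.2 ± 21.4 in lung, 65.2 ± 21.7 in liver and 35.2 ± 19.0 in B cells (SD, n = 5). B cells had 37.2 fewer than the mean of the other tissues. B cell sets were also smaller over the whole genome, with a mean of 115662 hotspots against 239870 in liver, 217742 in kidney and 211828 in lung. The region held 0.0218 to 0.0416% of the hotspots of a B cell set and 0.0175 to 0.0372% of those of a set of the other tissues, and these ranges overlapped. Kidney had 22.3 more than the mean of the other tissues, lung 12.1 more and liver 2.80 more, and their ranges overlapped. At 75000 hotspots per condition, the B cell difference turned to 2.73 more.

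Of the 108 CTCF hotspots of the region, 64 lay at member starts and 44 elsewhere, 31 of the latter touching a member's exon. DNase hotspots of mESCs touched 87.5% of those at starts and 31.8% of the others, against 38.1% of CTCF hotspots in the genome. Adult hotspots of any condition touched 92.2% and 31.8%, against 61.1% in the genome. The genome figures cover CTCF hotspots at any place, not only at gene starts. Of genes with CTCF at the start, 92.6% of members and 92.1% of all genes also had a mESC DNase hotspot within 1 kb. Without an adult hotspot in any condition were 1.85% of these members and 2.81% of these genes. A hotspot of any liver set touched 60.2% of the CTCF hotspots of the region, of any kidney set 55.6%, of any lung set 50.9% and of any B cell set 37.0%, against 51.8%, 47.5%, 46.2% and 43.0% in the genome.

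Merged over the 20 adult sets, the region held 199 sites, 78 at member starts and 121 elsewhere. CTCF of mESCs touched 82.1% of the sites at starts and 12.4% of the others, against 7.89% of all 745754 sites. Sites found in 1 condition alone made up 21.8% at starts and 66.9% elsewhere, against 42.2% in the genome. Both genome figures cover sites at any place, not only at gene starts. By Fisher's exact test over all sites of the genome, 7 of the 199 sites of the region were higher in lung, where 3.27% of all sites were called, 1 was higher in liver, where 5.53% were, and 1 in kidney, where 4.16% were. In B cells 4 sites were lower, where 2.5% were, and none was higher, where 1.08% were. No site was lower in liver, kidney or lung, with 0.106%, 0.216% and 0.0483% of all sites called. At an unadjusted p under 0.05, 21 sites of the region were higher in kidney (10.6%, against 9.85% of all sites) and none lower (1.69%), and 20 were lower in B cells (10.1%, against 8.40%) and none higher (3.00%). In lung 12 were higher (6.03%, against 7.62%) and 1 lower (1.99% of all sites), and in liver 5 were higher (2.51%, against 11.3%) and 1 lower (1.39%). The called shares were near or below those of the genome. With 1 hybrid left out, 3 to 4 sites were called higher in lung, 0 to 1 in kidney and 0 to 2 lower in B cells.

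The called sites lay at a few named places. In lung, the site at the Pcdhga2 start (5 lung sets against 2 of the others, adjusted p = 0.0408) was the only one of the 7 at a member start. In kidney, a narrow site of 204 bp at the Pcdha12 start was called (4 of 5 against 0 of 15, adjusted p = 0.0274). In liver, a site 3.16 kb upstream of the Pcdhac2 start was open in 5 of 5 liver sets and no other (adjusted p = 0.00212). In B cells, the Pcdhac2 start was lower (adjusted p = 0.0174), as were sites 28.7 kb downstream of it (0.0378), 5.46 kb upstream of Pcdhga1 (0.0362) and 2.06 kb downstream of the Pcdhga12 start (0.0362). The site upstream of Pcdhga1 carried CTCF and DNase hotspots in mESCs and was open in 15 of 15 conditions of the solid tissues.

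Away from member starts, few sites were open broadly. The 1 site open in all 20 conditions covered the start of Taf7, which encodes a subunit of a general transcription factor and lies between the beta and gamma subclusters. A site outside any member's gene record, 46.3 kb upstream of Pcdhb1 (chromosome 18, 37217150 to 37218601, mm10), was open in 19 of 20 conditions and carried both CTCF and DNase hotspots in mESCs. Another near the right end of the gamma genes, in the last shared exon (37841322 to 37841683), was also open in 19 and carried both. A site in a shared constant exon 5.28 kb downstream of the Pcdhgc5 start was open in 18 conditions and carried neither in mESCs. Enhancers of the clustered protocadherins are known away from the promoters, among them some downstream of the alpha genes. Their positions were not matched to these sites here.

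Of the 13 protocadherin and related genes outside the cluster, 2 were open in all 20 conditions (Pcdh1 and Pcdh17), and 4 carried CTCF at the start in mESCs. They too had fewer hotspots in B cells, with 2 to 7 open per set against 11 to 13 in liver, 10 to 13 in kidney and 8 to 13 in lung, and 5 had none in any B cell set (Pcdh8, Pcdh10, Pcdh12, Pcdh18 and Cdhr1). Of 16 genes for CTCF, cohesin, its regulators and silencing factors, 14 were open in all 20 conditions, including Ctcf, Rad21, Smc3, Nipbl, Wapl, Smchd1 and Setdb1. The exceptions were Stag1, open in 3 liver sets, and Dnmt1, with no hotspot at its outermost annotated start.

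RNA-seq of 17 samples gave few reads for the members. The summed expected count of the 58 members was 87.0 to 163 in 4 lung samples, 12.01 to 25.99 in 5 B cell samples, 15.01 to 25.86 in 4 kidney samples and 1 to 9 in 4 liver samples, out of 283725 to 809337 per table. Gamma members held 91.7% of the sum over all samples, and 18 members had 0 in every sample. In lung the leading members were Pcdhga12 (116 summed over 4 samples), Pcdhgc3 (87.4), Pcdhgb8 (81.7), Pcdhga11 (72.8) and Pcdhgb7 (58.2), and in B cells Pcdhgc4 (49.2 over 5 samples). These members were among those open in all or 19 of the 20 conditions, but broad opening did not go with high counts throughout. Pcdhgb4, Pcdhga5 and Pcdhgb5, also open in all 20, had sums of 0, 1.4 and 3.22 over all samples. Pcdhgc5, open in 2, had 12.78. The tables cannot be read as levels of the genes, since the kit keeps strand and Tsix, read from the strand opposite to Xist, had the higher count in 17 of 17 samples, and Actb had only 1 to 99. Members of a subcluster also share their last exons, so that reads may be divided among them.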

How the data were processed

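DNase-seq, CTCF ChIP-seq and RNA-seq were analysed from the deposited files. The authors mapped DNase-seq and ChIP-seq reads to mm10 with BWA, kept reads mapping uniquely and ran hotspot2 (FDR 5%) on the pooled samples of each condition. The deposited sets give for each hotspot its position and the −log10 of its FDR, limited to 100. The deposited RNA-seq tables give RSEM expected counts, which are not normalized and were not tested. The submitters' processing notes also name Trimmomatic and STAR.

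The mESCs are B6xCAST per the labels and the methods, whereas a supplementary summary of the study lists them under another hybrid.

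Gene starts were the outermost annotated starts in GENCODE M21, whose build is mm10. All 58 members were matched by symbol, and 2 records that share the symbol Pcdha11 were told apart by the RefSeq gene starts. Genes tested were 21755 protein-coding genes of the autosomes and chromosome X and Pcdhgb8. No hotspot touched the windows of 2 members, whose starts are at least 3779 bp apart. Reads that do not map uniquely were dropped, so near-identical stretches of members may lack hotspots. The number of hotspots served as the measure of the size of a set, which is not its sequencing depth. In the paper's summary, B cells of B6x129, B6xPWK and B6xSPRET had more analysed reads than kidney of the same hybrid, but fewer hotspots. In B6xC3H and B6xCAST, B cells had fewer of both. Since sets are pooled, counts of hotspots carry no counting interval.

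Tissues were compared by Fisher's exact test per gene start or merged site (overlap of 1 bp or more) with Benjamini-Hochberg adjustment over all genes or sites at 0.05. The members and gene lists were chosen with earlier results of these data known. Counts over the members and hotspot numbers of the region they bound are therefore given with no p. The design had listed exact permutation tests for both, over 1024 assignments for tissues. All 58 members were described by subcluster. Named singly were those with a CTCF hotspot, with adult hotspots in at least 10 conditions, called by tissue, of C type, or first or last in a subcluster, and those named outside this rule were chosen after their values were seen. Alternatives were windows of 500 bp and 2 kb, any transcript start, an overlap of 50 bp, FDR 1%, the 75000 (mESCs, 20000) highest-scoring hotspots, 50 kb flanks, other merging, genes with a hotspot, division by the share of all genes, free exchange of tissues, and leaving out each hybrid or tissue. Counts by subcluster were added after seeing the data. A marker gene of the lists is not reported here. The Fisher test was tested on simulated data. Scripts used scipy 1.17.1, numpy 2.4.6 and pandas 2.3.3 under Python 3.11.15.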

Additional observations from a re-analysis of the deposited data

Results flagged for a closer look

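In 3 of 63 groups of 4 or 5 conditions tested for a value far from the others, 1 condition stood apart, where chance flags about 1 in 20 groups. B6xCAST B cells had 4 open alpha members, against 0 to 1 in the B cells of the other hybrids. B6xSPRET kidney had a ratio of the members' share to the share of all genes of 0.974, against 1.19 to 1.26 in the kidney of the other hybrids. B6x129 B cells had 33 hotspots in the protocadherin region, against 86 to 96 in the other tissues of that hybrid. That B cell set was also smaller over the whole genome, with 117910 hotspots against 238917 to 295565. The region held 0.0280% of its hotspots, against 0.0325 to 0.0360% in the other tissues. The part of set size was not tested.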

How the results depend on the processing

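Differences below are the number in a tissue or hybrid minus the mean of the others. Of 462 alternatives of 43 results, 389 left the result as it was, and the cause of each change was not tested. With each condition limited to its 75000 highest-scoring hotspots, the difference in open members was -4.27 in liver, 2.40 in kidney, 4.00 in B cells and 1.44 in B6xC3H (with all hotspots 2.27, 19.1, -18 and -2.75). By subcluster, chosen after seeing the data, it was -0.200 for alpha in liver, 0.333 for alpha in lung, -1.33 for beta in liver, and -0.867, -0.600 and 4.20 for gamma in kidney, lung and B cells. Hotspots of the region then differed by -7.93 in liver and 2.73 in B cells. Member starts called were 2 higher and 0 lower in B cells (1.68% and 2.17% of all starts), and of 56 region sites 2 were higher in lung (5.55% of all sites), 3 higher in B cells (8.7%) and 0 lower in B cells (2.2%).

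At FDR 1%, 2 member starts were higher in kidney and 0 lower in B cells (0.639% and 4.34% of all starts). The kidney difference of the region was then 23.8, against 22.3 with all hotspots. Of 139 region sites 2 were higher in liver and 3 in kidney (7.58% and 5.09% of all sites). With 50 kb flanks, of 233 sites 2 were higher in liver and 12 in lung (5.53% and 3.27%). Among the 20000 highest-scoring hotspots of each mESC set, 20 members had CTCF and 8 had DNase. The share of all gene starts at this size is not given, so these counts cannot be set against the usual start.

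With 1 hybrid left out, the difference in open members was -0.750 to 7.67 in liver, 17.8 to 20.9 in kidney and -21 to -15.4 in B cells. With 1 tissue left out, it was 2.25 to 12.8 in B6xCAST and -2.67 to 3.08 in B6xPWK, where it turned without lung. The region's difference in liver was -2.75 to 10.3, and turned without B6x129 or B6xC3H. Member starts lower in B cells numbered 0 to 1, and region sites 0 to 1 higher in kidney, 3 to 4 higher in lung and 0 to 2 lower in B cells. These tests have fewer conditions. The listed permutation tests, whose p is not given, compared tissues within hybrids and hybrids within tissues. Sets without replicates and unequal numbers of hotspots limit what absence means.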
